A study of Mus musculus with 6 samples.

Results

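A set of 10 genes of the MHC class I pathway was read from the deposited count table by gene name: H2-K1, H2-D1, B2m, Tap1, Tap2, Tapbp, Psmb8, Psmb9, Psmb10 and Nlrc5. All 10 were among the 54532 genes listed, and 9 passed the filter on low counts; Nlrc5 did not. RNA came from mouse endothelial cells in culture, which form the inner lining of vessels, 72 h after lentivirus carrying an empty vector (control, n = 3) or an overexpression vector for RBPMS, an RNA-binding protein that takes part in pre-mRNA splicing (n = 3). Both groups therefore received lentivirus, and no uninfected group is among these samples. The labels give no strain, sex, age, vessel of origin or number of cell isolates, and nothing in them says that replicates came from separate cultures, so p-values speak only to how these samples vary, and that variation may be technical.

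MHC class I molecules show peptides from inside the cell to CD8 T cells. Proteasomes cut proteins into peptides, the TAP1-TAP2 transporter moves them into the endoplasmic reticulum, tapasin (Tapbp) bridges TAP to empty class I molecules, and a polymorphic heavy chain (H2-K1, H2-D1) pairs with beta-2-microglobulin (B2m) around the peptide. Interferon induces the pathway, including the catalytic subunits PSMB8, PSMB9 and PSMB10 that replace PSMB5, PSMB6 and PSMB7 in the immunoproteasome. NLRC5 is a transactivator that acts with an RFX, CREB and NF-Y assembly on class I promoters. Endothelium is in contact with circulating lymphocytes and carries class I molecules at its surface.

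Total counts per library ran from 15779567 to 23076124. Control replicate 3 stood apart: over genes, Pearson's r of its log2 CPM (counts per 1e+06 counts) was 0.954 to 0.960 with each other library and 0.991 to 0.995 among the rest, and it held more of short and less of long transcripts (median log2 difference from control replicates 1 and 2 of 0.60 in the shortest length quintile and -0.53 in the longest). Members were compared with all 6 libraries and without that library. Rbpms, the overexpressed gene, had 57.1, 56.8 and 55.2 CPM in control replicates 1 to 3 and 131, 148 and 133 CPM in RBPMS replicates 1 to 3, so the libraries followed their labels. Endothelial markers were abundant, with a summed level of 15760 to 20330 CPM in controls and 17470 to 18410 CPM with RBPMS over 10 genes. Without control replicate 3, 4 of these 10 were called, against 7.24% of all genes tested. These 4 are named here after their values were seen: Vwf at a log2 fold change of -0.45 (edgeR adjusted p = 1.7e-05), Kdr at -0.21 (0.0109), Erg at 0.21 (0.00465) and Emcn at 0.17 (0.0470). With all 6 libraries 0 of the 10 were called, and the part of this in the class I values was not tested.

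The sequences of both classical heavy chains are shown first because they limit what a count of either gene can mean. H2-K1 (ENSMUSG00000061232, chr17:33996017-34000333, minus strand, GRCm38) and H2-D1 (ENSMUSG00000073411, chr17:35262730-35267499, plus strand) had coding sequences identical at 88.3% of 1119 aligned positions. Their longest common coding stretch, 91 bases, is printed in capitals with 20 flanking bases in lower case, 5' to 3' in the sense of each gene, from GENCODE M21 transcripts:
H2-K1: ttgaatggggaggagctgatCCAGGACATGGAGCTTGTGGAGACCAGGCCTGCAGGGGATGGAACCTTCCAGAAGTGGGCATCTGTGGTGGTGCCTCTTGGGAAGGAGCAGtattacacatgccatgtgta
H2-D1: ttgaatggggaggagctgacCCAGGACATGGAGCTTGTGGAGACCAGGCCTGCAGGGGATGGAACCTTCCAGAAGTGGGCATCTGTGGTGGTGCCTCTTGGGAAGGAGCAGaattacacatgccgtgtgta
The H2-K1 stretch lies at chr17:33997323-33997453 and the H2-D1 stretch at chr17:35265891-35266021. Of the distinct 31-base words in annotated H2-K1 transcripts, 22.8% also occurred in transcripts of other genes (11.1% in H2-D1, 9.50% in H2-Q10), and of those of H2-D1, 26.9% did (13.8% in H2-K1). A read confined to such words cannot be assigned to 1 gene by sequence. The sources used here do not state how the authors' counting divided such reads, and mm10 holds the class I alleles of a single strain. B2m and Psmb10 shared 0% of their words with other genes.

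Promoters of 8 of the 10 genes were found in the RefSeq table (GRCm38.p6); Tap2 and Nlrc5 were not. Those of H2-K1 and B2m are shown because these genes were called in the comparison without control replicate 3, that of H2-D1 as the close relative that was not, and that of Tap1 because its start region is shared with Psmb9. Each is the 250 bases before the annotated start, 5' to 3' in the sense of the gene. Capitals mark matches, on either strand, to GAANNGAAA (interferon response element-like), GGGA and CC with 4 bases of any kind between them (NF-kB-like), TGACG (the core of the X2 box and of cAMP response elements), CCAAT (the NF-Y box) and TTCNNNGAA (STAT-like); overlapping matches run together.
H2-K1: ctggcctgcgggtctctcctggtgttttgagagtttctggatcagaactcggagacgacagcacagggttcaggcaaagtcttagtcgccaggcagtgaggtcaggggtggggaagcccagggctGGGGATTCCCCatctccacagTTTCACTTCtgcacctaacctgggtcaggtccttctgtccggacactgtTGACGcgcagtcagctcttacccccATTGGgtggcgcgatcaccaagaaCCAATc
H2-D1: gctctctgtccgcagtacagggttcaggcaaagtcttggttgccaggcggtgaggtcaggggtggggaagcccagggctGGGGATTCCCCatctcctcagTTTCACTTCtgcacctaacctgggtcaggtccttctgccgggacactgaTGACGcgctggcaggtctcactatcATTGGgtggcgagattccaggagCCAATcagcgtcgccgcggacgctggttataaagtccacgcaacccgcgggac
B2m: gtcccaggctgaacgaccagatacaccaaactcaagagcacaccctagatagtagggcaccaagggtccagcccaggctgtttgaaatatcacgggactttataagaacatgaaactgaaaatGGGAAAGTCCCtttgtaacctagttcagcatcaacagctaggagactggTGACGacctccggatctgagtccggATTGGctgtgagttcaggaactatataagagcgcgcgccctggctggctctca
Tap1: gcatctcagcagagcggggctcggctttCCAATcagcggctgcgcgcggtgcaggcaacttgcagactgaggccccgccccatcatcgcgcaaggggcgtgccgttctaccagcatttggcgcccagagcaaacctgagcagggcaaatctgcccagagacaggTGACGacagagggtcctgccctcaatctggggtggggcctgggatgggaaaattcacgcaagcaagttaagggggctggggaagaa
They lie at chr17:34000334-34000583 (minus strand), chr17:35262844-35263093, chr2:122147437-122147686 and chr17:34187306-34187555 (plus strand). The RefSeq start of H2-D1 lies inside the gene's span in the deposited table. The letters were settled after these promoters had been read: an interferon response element with 1 more fixed A was replaced by GAANNGAAA because the H2-K1 window does not hold it, and the NF-kB-like letters were picked because they take sites of both H2-K1 and B2m. The matches in these windows are therefore a description and support nothing. Both heavy chain windows held all motifs but the STAT-like one, the B2m window held the NF-kB-like one, TGACG and CCAAT, and that of Tap1 held TGACG and CCAAT. The B2m window also holds the run gaaactgaaa, which has 1 more A than GAANNGAAA takes and is therefore not marked. A missing mark in B2m thus follows from the letters chosen and does not mean that it lacks an interferon response element. The share of all 32817 windows of this length with each motif was 6.31% for GAANNGAAA, 17.6% for the NF-kB-like motif, 17.7% for TGACG, 33.8% for CCAAT and 7.01% for TTCNNNGAA. The windows of Tap1 and Psmb9, which are transcribed away from each other, had 225 bases in common. A match is a run of letters, and binding was not measured.

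Per kilobase of annotated gene length, B2m and H2-D1 were the most abundant members, and Nlrc5 was barely detected. Mean TMM-scaled CPM per kilobase in control replicates 1 and 2 were 354 for B2m, 269 for H2-D1, 99.2 for Tapbp, 21.3 for Psmb10, 12.5 for Tap2, 10.1 for H2-K1, 6.95 for Tap1, 3.34 for Psmb9, 2.97 for Psmb8 and 0.011 for Nlrc5. The RBPMS libraries gave 412 for B2m, 267 for H2-D1, 94.4 for Tapbp and 19.8 for Psmb10 on the same scale. Across the 6 libraries the ranges of neighbours in this order overlapped for B2m and H2-D1, for Tap2 and H2-K1, and for Psmb9 and Psmb8. H2-D1 was 20.8 to 26.7 times H2-K1 per kilobase in every library.

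**Figure D1:**
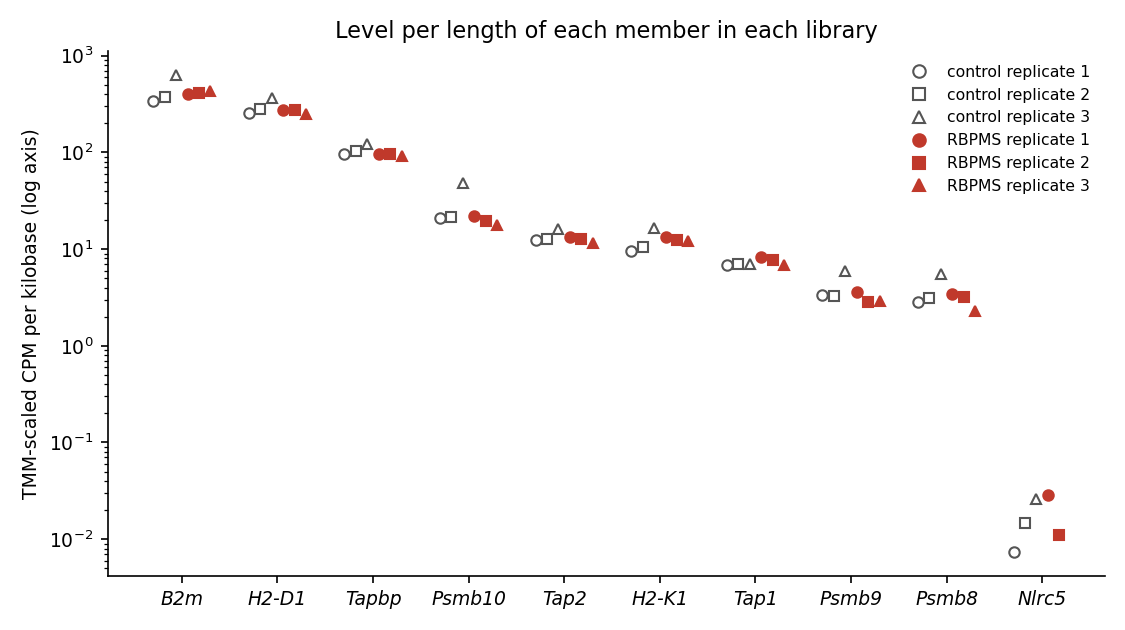
Level of each member in each library, as TMM-scaled CPM per kilobase on a log axis; open grey symbols are control libraries, filled red symbols RBPMS libraries, and the symbol's shape is the replicate. B2m and H2-D1 lie highest, Nlrc5 lowest (its RBPMS replicate 3, with 0 counts, is not drawn), and control replicate 3 is the highest of the 6 libraries for 8 of the 10 genes.

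H2-K1, one of the heavy chains, rose 1.25-fold with RBPMS when control replicate 3 was left out, and did not pass the test with it. H2-K1 had 25.0, 27.6 and 42.8 CPM in control replicates 1 to 3 and 34.5, 32.5 and 31.5 CPM in RBPMS replicates 1 to 3. The RBPMS libraries lay above control replicates 1 and 2 and below control replicate 3, so the groups overlapped over 6 libraries. The log2 fold change was 0.32 ± 0.081 (SE) without control replicate 3 (edgeR quasi-likelihood test, Benjamini-Hochberg adjusted p = 0.0181; 95% interval of the fold 1.11 to 1.41) and 0.04 ± 0.21 with it (adjusted p = 0.922). Beyond control replicate 3, the call was lost when control replicate 1 (adjusted p = 0.226) or RBPMS replicate 1 (adjusted p = 0.0887) was left out as well.

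B2m, the light chain common to all class I molecules (ENSMUSG00000060802, chr2:122147686-122153083), rose 1.17-fold in the same fit. B2m had 291, 318 and 548 CPM in control replicates 1 to 3 and 344, 351 and 369 CPM in RBPMS replicates 1 to 3. As for H2-K1, the RBPMS libraries lay between control replicates 1 and 2 below and control replicate 3 above. The log2 fold change was 0.22 ± 0.050 without control replicate 3 (edgeR adjusted p = 0.00886; 95% interval of the fold 1.08 to 1.25) and -0.12 ± 0.24 with all 6 libraries (adjusted p = 0.808). Without control replicate 1 as well, the log2 fold change of B2m was 0.16 and the adjusted p was 0.186.

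H2-K1 and B2m were the 2 members called higher out of 9 tested without control replicate 3, and 0 were called lower. Over all genes that fit called 3.81% higher and 3.43% lower (7.24% in all) of 14123 tested. The RBPMS libraries of these 2 members did not overlap with control replicates 1 and 2, which held in the upward direction for 18.3% and in the downward direction, with 0 members, for 19% of all genes tested. Over all 6 libraries edgeR called 0 of the 9 members and 0% of 13898 genes, with 0 members and 1050 genes at an unadjusted p under 0.05; DESeq2 called 41 genes higher and 15 lower and limma-voom 0, with no member among them. The median log2 fold change of the 9 members was -0.01 without control replicate 3 and -0.18 with it, against -0.0025 and -0.0083 over all genes tested.

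H2-D1, the other classical heavy chain, was not called in either fit, and its interval was narrow only without control replicate 3. It had 660, 730 and 949 CPM in control replicates 1 to 3 and 708, 712 and 650 CPM in RBPMS replicates 1 to 3. The groups overlapped with and without control replicate 3. The log2 fold change was -0.01 ± 0.053 without that library (edgeR adjusted p = 0.955, 95% interval of the fold 0.920 to 1.07). With all 6 it was -0.18 ± 0.16 (adjusted p = 0.631, 95% interval of the fold 0.678 to 1.16).

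The share of H2-K1 in the heavy chain counts was higher in the RBPMS libraries, also against control replicate 3. Of the summed H2-K1 and H2-D1 counts, H2-K1 took 3.65%, 3.65% and 4.32% in the controls (replicates 1 to 3) and 4.64%, 4.37% and 4.63% in the RBPMS libraries. Every RBPMS value was above every control value, by a small margin over control replicate 3, and the two-sided exact permutation p of the log2 ratio was 0.1, the smallest that 3 against 3 allows. This share does not depend on scaling between libraries. It was chosen after the values were seen, and the shared sequence shown above applies to it.

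The transporter genes lie in the class II region of the MHC, with Psmb8 between them. Tap1 (ENSMUSG00000037321, chr17:34187553-34197225) had 37.4, 38.8 and 38.2 CPM in control replicates 1 to 3 and 44.8, 41.9 and 37.2 CPM in RBPMS replicates 1 to 3. The fold change of Tap1, on the log2 scale, was 0.12 ± 0.082 without control replicate 3 (edgeR adjusted p = 0.445; 95% interval of the fold 0.966 to 1.22) and 0.12 ± 0.11 with all 6 libraries (adjusted p = 0.635). RBPMS replicates 1 and 2 lay above all controls and RBPMS replicate 3 below them. Tap1 was the one tested member that control replicate 3 did not exceed: that library lay within the range of the other controls.

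Tap2 (ENSMUSG00000024339, chr17:34203527-34216321) had 46.8, 47.8 and 61.7 CPM in control replicates 1 to 3 and 50.02, 47.6 and 43.5 CPM in RBPMS replicates 1 to 3. The groups overlapped, and the log2 fold change was -0.01 ± 0.073 without control replicate 3 (edgeR adjusted p = 0.979) and -0.15 ± 0.14 with it (adjusted p = 0.637). Of the summed Tap1 and Tap2 counts, Tap1 took 44.4%, 44.8% and 38.3% in the controls (replicates 1 to 3) and 47.3%, 46.8% and 46.1% in the RBPMS libraries. The groups did not overlap in this share either (two-sided exact permutation p = 0.1, the smallest possible), and it too was chosen after the values were seen. Tap1 (5476 bases) is longer than Tap2 (3781 bases), and control replicate 3 held less of long transcripts. The part of length in the 38.3% of that library was not tested.

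Tapasin (Tapbp, ENSMUSG00000024308, chr17:33915899-33929288) had 317, 337 and 407 CPM in control replicates 1 to 3 and 318, 314 and 302 CPM in RBPMS replicates 1 to 3. RBPMS replicate 1 lay just above control replicate 1, and RBPMS replicates 2 and 3 below all controls. The log2 fold change was -0.07 ± 0.047 without control replicate 3 (edgeR adjusted p = 0.434; 95% interval of the fold 0.890 to 1.02) and -0.19 ± 0.13 with it (adjusted p = 0.592). The Tapbp locus overlaps Zbtb22 on the same strand over 3421 bases, and Zbtb22 had 698 to 1027 counts per library.

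**Figure D2:**
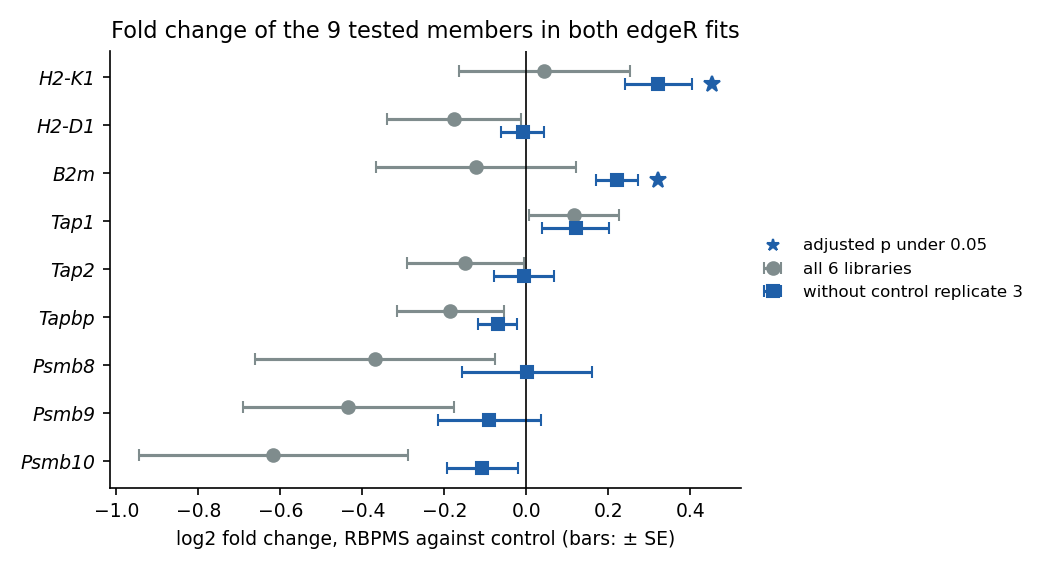
Log2 fold change of the 9 tested members, RBPMS against control, with bars of 1 SE; grey circles are the edgeR fit of all 6 libraries, blue squares the fit without control replicate 3, and stars mark an adjusted p under 0.05. H2-K1 (0.32) and B2m (0.22) are the starred genes, and the 6-library estimates lie lower for every member, by the least for Tap1 (0.12 in both fits).

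None of the 3 immunoproteasome genes was called in either fit. Psmb8 (ENSMUSG00000024338, chr17:34197721-34201454), which encodes the chymotrypsin-like inducible subunit, had 7.79, 8.45 and 15.0 CPM in control replicates 1 to 3 and 9.34, 8.74 and 6.19 CPM in RBPMS replicates 1 to 3. Psmb9 (ENSMUSG00000096727, chr17:34181988-34187764) had 12.4, 12.0 and 21.8 CPM and then 13.3, 10.4 and 10.7 CPM. Psmb10 (ENSMUSG00000031897, chr8:105935735-105938444) had 35.8, 37.0 and 82.1 CPM and then 37.6, 33.2 and 30.3 CPM. In all 3 genes control replicate 3 lay far above the other 5 libraries, among which the groups overlapped.

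Without control replicate 3 the log2 fold change was 0.0027 ± 0.16 for Psmb8, -0.09 ± 0.12 for Psmb9 and -0.11 ± 0.086 for Psmb10 (edgeR adjusted p = 0.995, 0.756 and 0.536). The 95% intervals of the fold were 0.797 to 1.26, 0.784 to 1.13 and 0.820 to 1.05. With all 6 libraries the log2 fold changes were -0.37 ± 0.29, -0.43 ± 0.26 and -0.62 ± 0.33 (adjusted p = 0.605, 0.587 and 0.587). Psmb8 had 113 to 191 counts in the 5 libraries without control replicate 3. Psmb9 and Tap1 overlap on opposite strands over 212 bases; the sources used here do not state whether counting used strand.

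The constitutive partners were counted in the same libraries. Psmb6, the partner replaced by PSMB9, fell from 62.5 and 70.8 CPM in control replicates 1 and 2 to 55.4, 52.1 and 53.7 CPM (log2 fold change -0.31 ± 0.067, edgeR adjusted p = 0.00583); in control replicate 3 it stood at 131 CPM. Psmb5 (-0.20 ± 0.080, adjusted p = 0.144) and Psmb7 (-0.02 ± 0.056, adjusted p = 0.858) were not called; with all 6 libraries they had -0.57 and -0.36 (adjusted p = 0.587 and 0.590). Psmb6 lost its call without control replicate 2 (-0.22, adjusted p = 0.151), and it was not called over all 6 libraries (-0.71, adjusted p = 0.587).

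Set against its constitutive partner per kilobase, Psmb9 stood at 10.1%, 8.70% and 8.55% of Psmb6 in the controls (replicates 1 to 3) and at 12.3%, 10.2% and 10.2% in the RBPMS libraries. Every RBPMS value was above every control value, in 2 of 3 by a narrow margin over control replicate 1 (two-sided exact permutation p = 0.1, adjusted p = 0.3 over the 3 ratios, n = 3 and 3; exact p = 0.4 without control replicate 3). Psmb8 stood at 7.67% ± 0.43 (SD, n = 3) of Psmb5 in controls and 8.76% ± 1.26 with RBPMS, and Psmb10 at 115% ± 16.4 of Psmb7 in controls and 99.6% ± 10.3 with RBPMS. Both had an exact permutation p of 0.3 (n = 3 and 3). A test that cannot go below 0.1 cannot settle whether either ratio differed. Per kilobase, Psmb10 thus stood at about the level of its partner, and Psmb8 and Psmb9 far below theirs. The level of Psmb10 rests on the annotated lengths, 1705 bases for Psmb10 and 3421 for Psmb7. Not divided by length, Psmb10 had 35.8 and 37.0 CPM and Psmb7 68.8 and 69.5 CPM in control replicates 1 and 2.

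**Figure D3:**
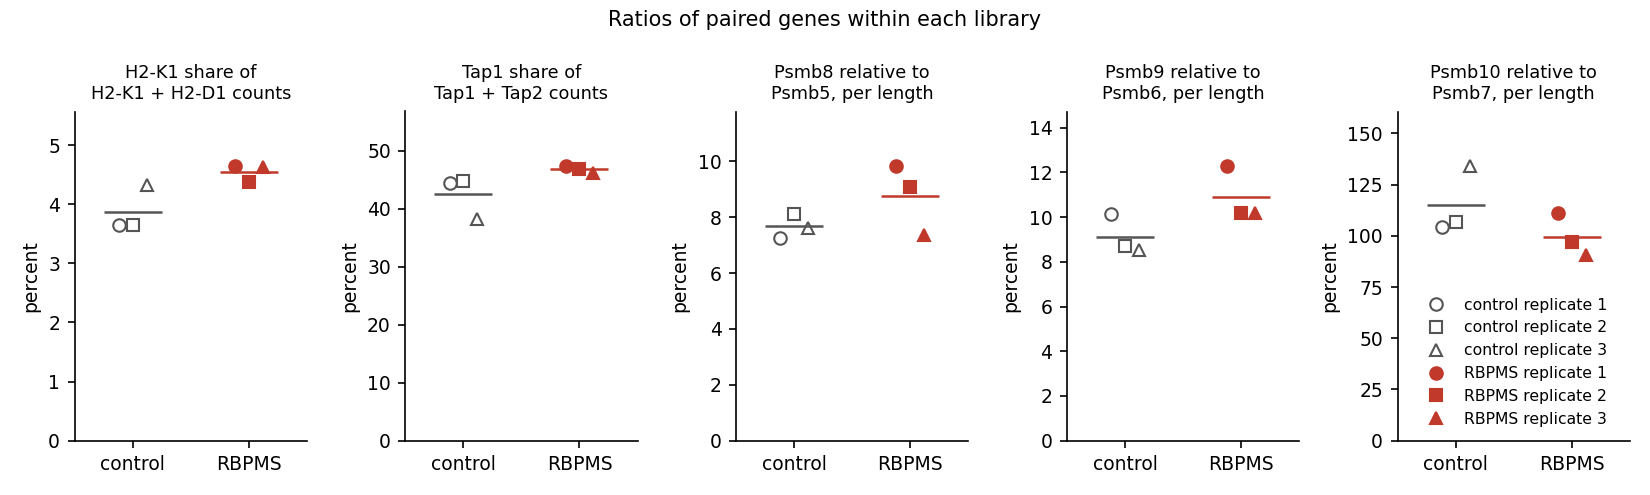
Within-library ratios in percent, from left to right the H2-K1 share of H2-K1 plus H2-D1 counts, the Tap1 share of Tap1 plus Tap2 counts, and Psmb8, Psmb9 and Psmb10 relative to Psmb5, Psmb6 and Psmb7 per kilobase; horizontal lines are group means and each axis starts at 0. The groups do not overlap in the first, the second and the fourth panel (H2-K1 share 3.65% to 4.32% in controls and 4.37% to 4.64% with RBPMS).

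Nlrc5 (ENSMUSG00000074151, chr8:94434356-94527272) was at the limit of detection. Its counts were 1, 2 and 5 in the controls (replicates 1 to 3) and 5, 2 and 0 in the RBPMS libraries. The 0 counts of RBPMS replicate 3 allow up to 0.165 CPM (3 counts of that library, counting error only). A difference between groups was not detectable at this depth. Other members were counted at up to 949 CPM (H2-D1) in these libraries.

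Control replicate 3 held more of most members than any other library. It was the highest of the 6 libraries for 8 of the 10 genes, the exceptions being Tap1 and Nlrc5, and it exceeded the range of the other 5 upward for 40.3% of all genes tested. Relative to the mean of control replicates 1 and 2 it held 2.25 times as much Psmb10, 1.84 times as much Psmb8, 1.80 times as much B2m, 1.79 times as much Psmb9 and 1.63 times as much H2-K1. Tapbp was at 1.25 times and Tap1 at 1.00 times the mean of the other controls. The longest tested member, Tap1 (5476 bases), had the smallest difference, and the shortest pair, B2m (860 bases) and Psmb10 (1705 bases), were among the 3 largest. The order did not follow length throughout. Psmb8 (2736 bases) and Psmb9 (3659 bases), at 1.84 and 1.79 times, stood above the shorter H2-D1 (2579 bases), at 1.37 times. With a trend on gene length taken out of each library, the 6-library log2 fold change of B2m was 0.05 (edgeR adjusted p = 0.871) and 0 members were called. The part of length, RNA quality or the state of the cells in this library was not tested.

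**Figure D4:**
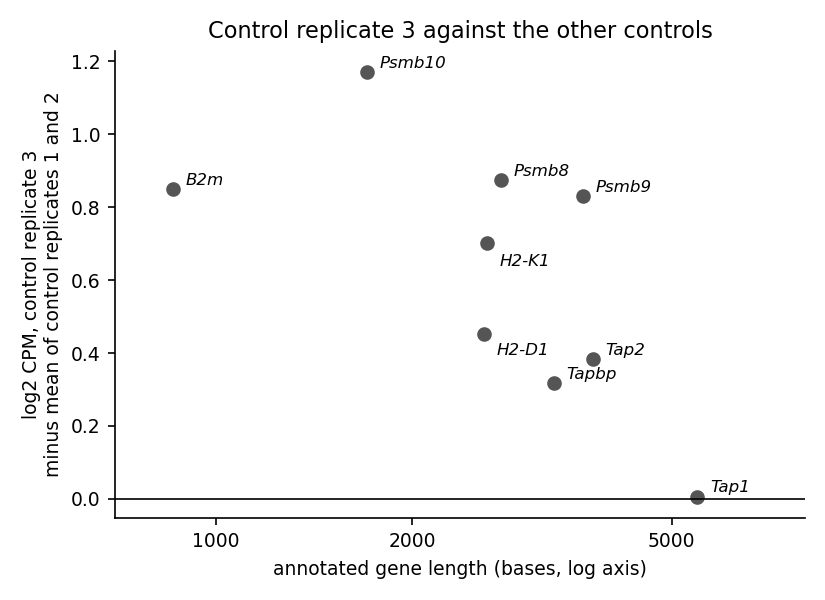
Difference in log2 CPM between control replicate 3 and the mean of control replicates 1 and 2 (vertical axis) against annotated gene length in bases (log axis) for the 9 tested members. All points but Tap1 (0.01) lie well above 0, with Psmb10 highest at 1.17.

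Other class I chains did not pass the test. Of 18 listed class I and class I-like genes 12 were tested, and 0 were called in either fit (median log2 fold change 0.0033 without control replicate 3 and -0.17 with it). H2-T23, which encodes the Qa-1 chain that presents leader peptides to NK cell receptors, had a log2 fold change of -0.13 ± 0.069 without control replicate 3 (edgeR adjusted p = 0.280) and -0.49 with it (adjusted p = 0.587). H2-Q4 had -0.0020 ± 0.073 (adjusted p = 0.992) and -0.17 (adjusted p = 0.631). Genes of the Q and T regions are close copies of each other, so their counts are uncertain where reads were split.

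Partners of loading and trimming were read in lists of loading (8 genes), activators (4) and cytosolic peptidases (6). Without control replicate 3, 1 gene of each list was called lower and 0 were called higher. Over all genes that fit called 3.43% lower and 3.81% higher, so 0 in lists of this size says little. Log2 fold changes were positive in 4 of 8, 1 of 4 and 4 of 6 genes. Psme2, a subunit of the interferon-inducible PA28 activator of the proteasome, fell from 30.0 and 30.9 CPM in control replicates 1 and 2 to 24.3, 22.4 and 21.4 CPM (log2 fold change -0.42 ± 0.082, edgeR adjusted p = 0.00270), with control replicate 3 at 60.0 CPM. Its RBPMS libraries lay below all 3 controls, as in 12.5% of all genes tested. Erap1, the aminopeptidase that trims peptides in the endoplasmic reticulum, had 78.4, 76.0 and 58.9 CPM in control replicates 1 to 3 and 66.3, 60.8 and 70.6 CPM in RBPMS replicates 1 to 3. Erap1 fell by 0.23 on the log2 scale without control replicate 3 (adjusted p = 0.0327), but that library lay below all RBPMS libraries, and with all 6 the log2 fold change was -0.11 (adjusted p = 0.705). Blmh, a cytosolic peptidase, fell by 0.22 without control replicate 3 (adjusted p = 0.0127). The RBPMS libraries of Blmh also lay below all 3 controls, as in the same 12.5% of genes. With all 6 libraries its log2 fold change was -0.47 (adjusted p = 0.587). Erap1 lost its call without any 1 of control replicate 1, control replicate 2, RBPMS replicate 1 or RBPMS replicate 2, with adjusted p between 0.0876 and 0.230, and Blmh without control replicate 1 (adjusted p = 0.195) or RBPMS replicate 1 (adjusted p = 0.0555). Psme2 was not called over all 6 libraries either (-0.83, adjusted p = 0.587).

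Among 17 genes of the constitutive 20S core and its assembly, 1 (Psmb6) fell and 0 rose without control replicate 3, with a median log2 fold change of -0.02. With all 6 libraries the median was -0.44 and all 17 were negative, none of them called. The median log2 difference of control replicate 3 from control replicates 1 and 2 was 0.94 in this list and 0.70 for the members. In 7 of the 17 the RBPMS libraries lay below all 3 controls, as in 12.5% of all genes tested.

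The listed transcription factors of class I promoters, which do not include Nlrc5, were expressed and were not called. Of 15 transcription factors 0 passed with or without control replicate 3, and the median log2 fold change without it was 0.03. In that fit the RBPMS libraries lay above both controls in 5 of the 15 and below both in 2. The shares over all genes tested were 18.3% and 19%. Rela, an NF-kB subunit, had 0.15 ± 0.049 (edgeR adjusted p = 0.0730) and Nfkb1 -0.03 ± 0.046 (adjusted p = 0.8003). With all 6 libraries they had 0.14 and 0.05 (adjusted p = 0.591 and 0.838). Of 10 interferon receptor and signalling genes 0 passed, with Ifnar1 at 0.10 ± 0.046 (adjusted p = 0.211) and Jak1 at -0.01 ± 0.045 (adjusted p = 0.957), and at 0.20 and 0.14 with all 6 libraries (adjusted p = 0.588 and 0.673).

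Interferon genes themselves were hardly counted. Ifna4, Ifng, Ifnl2 and Ifnl3 had 0 counts in every library, Ifnb1 had at most 2, and Ifne, the one tested, was not called (log2 fold change -0.42 ± 0.28, edgeR adjusted p = 0.440, without control replicate 3 and -0.58, adjusted p = 0.587, with it). MHC class II was near 0 too: 4 of 9 listed genes, including H2-Aa and H2-Ab1, had 0 counts in all libraries, and 8 of 9 never exceeded 10 counts. The transactivator gene Ciita had 2 to 7 counts per library, and H2-DMa, which helps to load class II molecules, had 5 to 18 counts and was not called (adjusted p = 0.264 without control replicate 3 and 0.587 with it).

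Of 13 tested guanylate-binding protein and immunity-related GTPase genes, which encode proteins that act on membranes of intracellular pathogens, 3 rose and 0 fell without control replicate 3, with a median log2 fold change of 0.25 and 12 of 13 positive. Over all genes that fit called 3.81% higher, and 49.3% were positive. Gbp4 had 133, 146 and 110 CPM in control replicates 1 to 3 and 204, 210 and 190 CPM in RBPMS replicates 1 to 3 (log2 fold change 0.53 ± 0.054, edgeR adjusted p = 3.6e-06). Gbp6 had 9.24, 10.4 and 8.81 CPM and then 15.9, 15.7 and 16.1 CPM (0.70 ± 0.11, adjusted p = 4.3e-04). Gbp9 rose by 0.33 ± 0.046 (adjusted p = 1.2e-04), from 399 and 419 CPM in control replicates 1 and 2 (208 in control replicate 3) to between 503 and 518 CPM. In these 3 genes all RBPMS libraries lay above all 3 controls, as in 12.2% of all genes tested. Over all 6 libraries the median was 0.27, all 13 were positive and 0 were called by edgeR, while DESeq2 called Gbp4 and Gbp6 (adjusted p = 0.0193 and 0.00124). The annotated loci of Gbp4 and Gbp9 overlap on the same strand, and these families hold close copies, so the counts of single members are uncertain where reads were split.

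**Figure D5:**
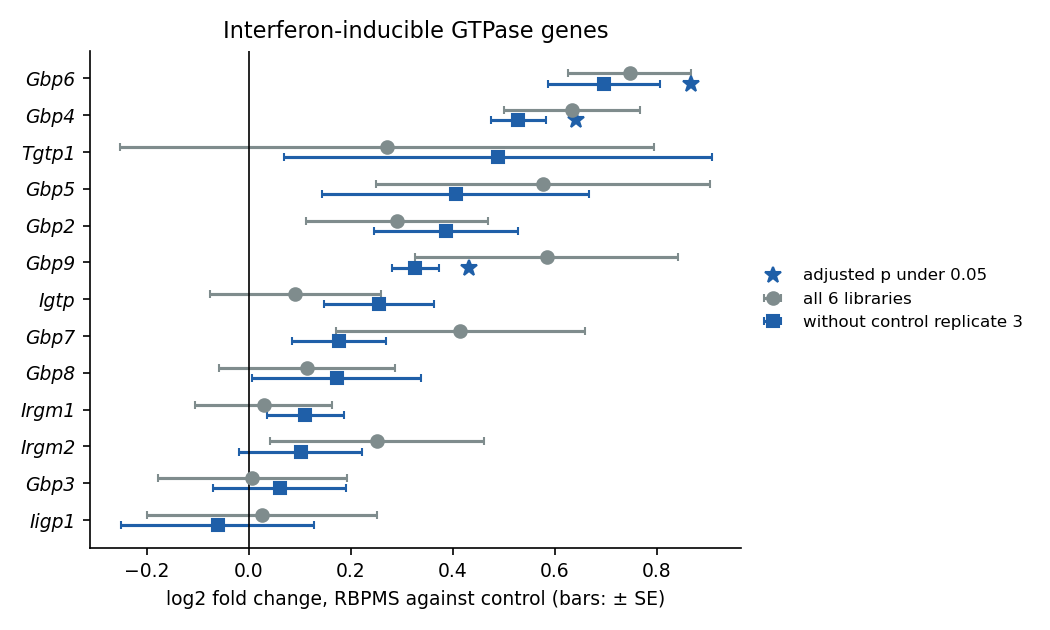
Log2 fold change of the 13 tested GTPase genes, RBPMS against control, with bars of 1 SE; grey circles are the fit of all 6 libraries, blue squares the fit without control replicate 3, and stars mark an adjusted p under 0.05. Gbp6 (0.70), Gbp4 (0.53) and Gbp9 (0.33) are starred, and Iigp1 is the one gene below 0 without control replicate 3.

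Of 9 costimulatory and coinhibitory ligand genes, 6 were tested. Without control replicate 3, 1 of them (Cd276) was called lower and 0 higher, against 3.43% and 3.81% of all genes tested. The list did not fall as a whole: 5 of the 6 had a positive log2 fold change in that fit, with a median of 0.09. With all 6 libraries 0 were called and 3 of the 6 were positive. Cd276, which encodes the B7-H3 ligand, had 9.68, 7.16 and 4.01 CPM in control replicates 1 to 3 and 6.26, 5.35 and 5.43 CPM in RBPMS replicates 1 to 3. It fell by 0.56 on the log2 scale without control replicate 3 (edgeR adjusted p = 0.0325). Control replicate 3 lay below all RBPMS libraries, and with all 6 libraries the log2 fold change was -0.28 (adjusted p = 0.670). Cd276 also lost that call without control replicate 1, RBPMS replicate 2 or RBPMS replicate 3 as well (adjusted p = 0.428, 0.0864 and 0.0713), and with DESeq2 (adjusted p = 0.0871).

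Of the leukocyte markers, Cd68 was higher with RBPMS. The summed level of the 14 listed genes was 46.8 to 53.0 CPM in controls and 59.7 to 63.8 CPM with RBPMS. Most of it was Cd68, a lysosomal protein gene, at 41.4, 46.5 and 41.7 CPM in control replicates 1 to 3 and 53.3, 58.3 and 54.8 CPM in RBPMS replicates 1 to 3 (log2 fold change 0.34 without control replicate 3, edgeR adjusted p = 0.00545; 0.36 with all 6 libraries, adjusted p = 0.587). Without Cd68 the sum was 5.41, 6.48 and 5.51 CPM in the controls and 6.41, 5.44 and 7.89 CPM in the RBPMS libraries (replicates 1 to 3), which overlapped. Of the 4 leukocyte genes tested without control replicate 3, Cd68 was the 1 called. Most of the 14 were near 0: Ptprc had at most 3 counts in any library, Cd3e and Adgre1 had 0, and 9 of the 14 never exceeded 5 counts. Other listed markers were counted: Itgax had 56 to 106 counts per library, Lyz2 10 to 52 and Cd79a 2 to 12. Fibroblast markers summed to 5.15 to 8.17 CPM in controls and 5.72 to 6.08 CPM with RBPMS, smooth muscle markers to at most 1.36 CPM and cardiomyocyte markers to at most 3.74 CPM in any library. Epithelial and mesothelial markers summed to 21.4 to 26.1 CPM in controls and 17.1 to 21.2 CPM with RBPMS, nearly all of it Msln, and neither tested gene passed (adjusted p = 0.0773 for Msln and 0.598 for Krt19 without control replicate 3). The part of other cells in the class I values was not tested; in such bulk samples a change in the share of cells and in RNA per cell cannot be told apart.

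The genes whose log2 CPM over the 6 libraries was most like the mean standardised profile of the 9 tested members were Ndufaf3 (Pearson's r = 0.996), Bst2 (0.994), Leprot (0.992), Kcmf1 (0.992) and Rbbp9 (0.992). Bst2 encodes tetherin, an interferon-inducible protein that holds budding virus at the cell surface. Of 10580 genes, 1366 had an r above 0.9, and the list rests on control replicate 3: without that library, a list added after seeing the data, the 5 most alike were Rmnd1 (0.999), Hdac11 (0.993), Hps6 (0.992), Tcirg1 (0.989) and Rel (0.985), none of them in the first list, and 154 genes had an r above 0.9. These values are descriptions over libraries that share depth and scaling.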

How the data were processed

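The authors deposited whole-number counts per gene for 6 libraries, with gene names, coordinates and lengths. Per the labels' protocols, total RNA was depleted of ribosomal RNA before library preparation. FastQC, Salmon and mm10 are named in the submitters' processing notes; counting step, versions and strand use: not given in the sources used here. Of the listed identifiers 54495 are in GENCODE M21 (GRCm38), 53585 of them with identical coordinates, including 7 of the 10 members.

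Counts were analysed in R 4.3.3 with edgeR 4.0.16 (filterByExpr, TMM, quasi-likelihood test with group as the only term, Benjamini-Hochberg adjustment over all genes tested, threshold 0.05), over 6 libraries and without control replicate 3. Each SE is the size of the log2 fold change over the square root of F. DESeq2 1.42.0 and limma-voom (limma 3.58.1) were alternatives. Single ratios used exact permutation tests. Levels are CPM scaled by TMM over genes that passed the filter. The fit was tested on simulated data. Pairs of libraries of a group differed by a chi-square per degree of freedom of 3.19 or more, so none was a copy. The members, the lists and the fit without control replicate 3 were chosen with earlier results of these data known, and the H2-K1 and Tap1 shares, the alternatives for list genes and the motif letters after values or sequences were seen. Genes named are Rbpms, all members, called genes of each list (up to 4), or else its most abundant tested ones (up to 2), the constitutive partners of the inducible subunits, and the 5 genes most like the members; locus neighbours and markers were named in addition. Promoter sequences are from RefSeq (GRCm38.p6).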

Additional observations from a re-analysis of the deposited data

How the results depend on the processing

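Leaving out each replicate from the 6 libraries gave 0 to 2 members called higher and 0 called lower, 0 to 538 genes called higher and 0 to 484 lower, the upper values without control replicate 3. Members called stayed at 0 under every other 6-library setting. All genes called higher and lower were 4 and 1 with no filter, 41 and 15 with DESeq2 and 2 and 1 with a gene length offset.

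Without control replicate 3, leaving out 1 more library gave 0 to 2 members called higher, 221 to 591 genes called higher and 194 to 426 lower, the lowest values without control replicate 1 (0 members) and 1 member without RBPMS replicate 1. Other settings called the same 2 members. Leave-one-out ranges of log2 fold changes over 6 libraries were -0.11 to 0.32 for H2-K1, -0.29 to 0.22 for B2m, -0.54 to 0.0027 for Psmb8, -0.56 to 0.034 for Cd276, -0.028 to 0.097 for Nfkb1 and -0.0075 to 0.23 for Jak1. Over 5 libraries they were -0.11 to 0.16 for Psmb8, -0.026 to 0.0088 for Jak1, -0.083 to 0.066 for H2-D1, -0.048 to 0.050 for Tap2 and -0.11 to 0.11 for H2-Q4.

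The replicate block left 0 and 2 members called. Correlations of deviations of same-numbered libraries were -0.03 to 0.05. Control replicate 3 weighs heavily on the deviations of the controls, so these values cannot decide whether replicate numbers pair the samples. With the block in 5 libraries log2 fold changes of H2-D1, Tap2 and H2-Q4 were 0.033, 0.045 and 0.043. The gene length offset turned B2m (0.054) and Nfkb1 (-0.21) over 6 libraries and Psmb8 (-0.0086) over 5. Over 5 libraries Psmb8 was -0.0018 with total library size and -0.012 with limma-voom, and H2-Q4 was 0.0015 with no filter and 0.0011 with limma-voom. The cause was not tested. The ratios of inducible to constitutive subunits moved by less than the spread between libraries under each setting. Fewer than 10 counts per library, as for Nlrc5, allow no comparison.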
